A study of Homo sapiens with 24 samples.

Results

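The comparison described here is that of SETD2 C with KO in RNA-seq of HEK293T cells. HEK293T cells derive from human embryonic kidney. KO is its derivative in which the SETD2 gene was disrupted, and the labels describe the KO libraries as untreated. SETD2 C (N3 in the labels) denotes KO cells that received a plasmid for residues 1404 to 2564 of SETD2, driven by the CMV promoter, and RNA was collected 72 h after transfection. The 4 libraries, 2 of SETD2 C (replicates 1 and 2) and 2 of KO (replicates 2 and 4), are 4 of the 24 samples of the series and of its 10 RNA libraries. They share a table with 2 libraries of SETD2 FL (replicates 3 and 4), KO cells transfected with the full-length protein, residues 1 to 2564. All 3 groups carry the SETD2 knockout. KO cells without transfection are the only control in the table, so the construct and the transfection cannot be told apart in SETD2 C against KO. SETD2 C against SETD2 FL compares 2 transfected groups. The SETD2 transcript was also higher under SETD2 C than under SETD2 FL, so the construct and its amount cannot be told apart there. WT and KO cells, 2 libraries each, are in a first table that was made separately.

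SETD2 is the enzyme that places trimethylation on lysine 36 of histone H3 (H3K36me3) as it travels with RNA polymerase II. The mark lies over the bodies of transcribed genes and is known for its links to splicing, to DNA methylation within genes, to DNA repair and to the silencing of spurious starts of transcription. The long N-terminal segment of SETD2 is a target of the proteasome, and the C-terminal part holds the catalytic SET domain and the SRI domain that binds the polymerase.

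Values are TPM, in which reads are divided by transcript length and every library sums to the same total. TPM carries no depth, so no counting error can be given. Of 58884 genes listed, 15929 protein-coding and lncRNA genes passed the filter on low TPM (0.5 or more in 2 or more libraries) and entered the limma test, on a scale of log2(scaled TPM + 0.5). All fold changes below are differences on that log2 scale, on which the change of a gene with low TPM is understated. A gene is called at a change of 2-fold or more with a p, adjusted by Benjamini and Hochberg, of up to 0.05. "Rose" and "fell" are used for genes past the adjusted p, and every adjusted p below is from limma. The labels do not say whether replicates were separate cultures, so p-values measure only the spread between these libraries. With 2 libraries against 2, the smallest exact permutation p is 0.333. SETD2 itself had a TPM of 11.99 and 12.2 in KO, 439 and 422 under SETD2 FL and 1329 and 1264 under SETD2 C, which matches the labels of the transfected libraries. For this transcript SETD2 C exceeded SETD2 FL by 1.46 (adjusted p = 7.1e-06). The SETD2 transcript was not lower in KO than in WT, at 16.2 and 16.3 against 12.6 and 14.8 in the first table, so this transcript does not check the label KO.

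Of genes that passed both 2-fold and the adjusted p, more were higher than lower under SETD2 C. Relative to KO, 597 of the 15929 genes were called higher (3.75%) and 50 were called lower (0.314%). By the adjusted p alone, 3357 genes rose (21.1%) and 2404 fell (15.1%), a balance that turned to 2456 higher and 2786 lower under quantile normalization, 2282 and 4107 after adjustment for GC content, and 2328 and 3960 after adjustment for transcript length. In TPM as deposited, before scaling, both SETD2 C libraries lay above both KO libraries for 57.1% of genes and below them for 16.5%. All 597 and all 50 called genes were among these. In bulk RNA, a higher level in all cells and a level raised in some of them cannot be told apart. More genes were called higher than lower under each scaling tried, although quantile normalization moved the share of called genes that were higher from 92.3% to 72.5%, with 342 higher and 130 lower. The median change of all genes was 0.0458. It was 0.18 without scaling and 0.13 after rescaling without the mitochondrially encoded genes and SETD2, so changes of that size depend on the scaling.

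Under SETD2 FL, 0.0753% of all genes were called higher than in KO. The 597 genes had a median change from KO of 1.25 under SETD2 C and 0.15 under SETD2 FL, and both changes are measured from the same KO libraries. SETD2 C exceeded SETD2 FL, at the adjusted p, for 548 of the 597 genes, against 21.4% of all genes. It lay below SETD2 FL for 39 of the 50 lower genes, against 16.8% of all genes. These counts rest on the SETD2 C libraries that also chose the genes, so they are descriptions. The single gene of the 597 that was lower under SETD2 C than under SETD2 FL at the adjusted p was GDF15, a stress-induced cytokine, chosen after its values were seen. GDF15 had a TPM of 2.77 and 2.88 in KO, 12.3 and 12.1 under SETD2 FL and 9.16 and 9.7 under SETD2 C.

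**Figure D1:**
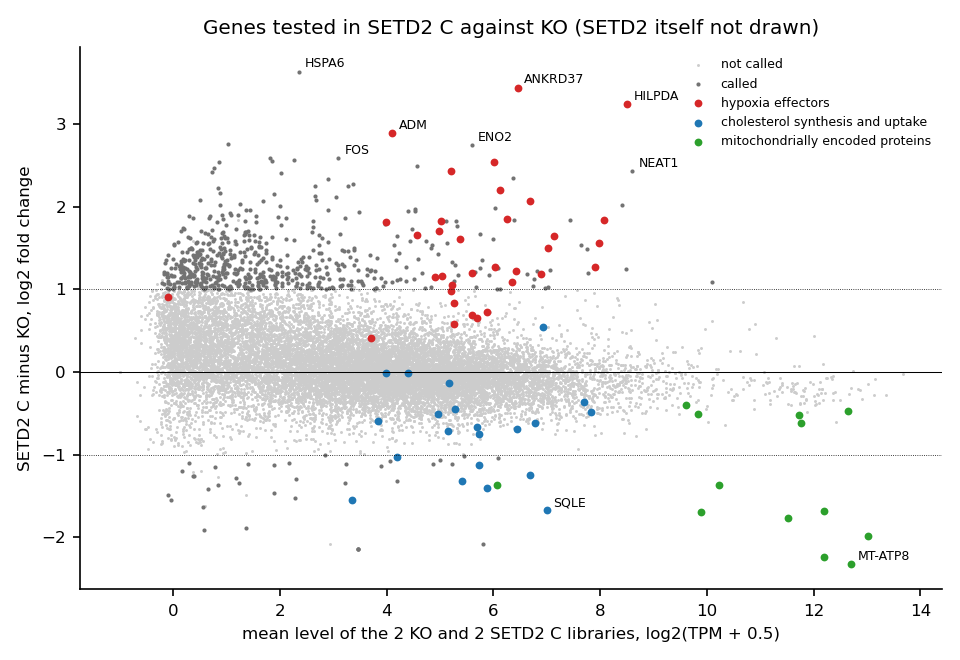
Each point is 1 tested gene, with the mean level of the 2 KO and 2 SETD2 C libraries on the x axis (log2 of TPM + 0.5) and the log2 fold change of SETD2 C minus KO on the y axis; dotted lines mark 2-fold. All 34 hypoxia effectors (red) lie above 0, 17 of the 21 cholesterol genes (blue) passed the adjusted p below 0, and all 13 mitochondrially encoded mRNAs (green) lie below 0.

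Genes that cells switch on when oxygen is scarce rose together under SETD2 C. They are known as targets of the hypoxia-inducible factors, HIF, which are destroyed in the presence of oxygen after prolyl hydroxylation and capture by VHL. All 34 tested hypoxia effectors rose and 26 were called, with a median change of 1.38 against 0.046 over all genes. With SETD2 FL their median change from KO was -0.092, and all 34 were higher under SETD2 C than under SETD2 FL at the adjusted p. Between 24 and 28 of them were called under every alternative setting and with each library left out.

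ANKRD37, an ankyrin-repeat protein, HILPDA, a lipid droplet protein that inhibits lipolysis, and ADM, the vasodilator peptide adrenomedullin, led the group. ANKRD37 (ENSG00000186352, chr4:185396021-185400628 of GRCh38, 5 exons) had a TPM of 12.4 and 13.8 in KO, 10.5 and 10.97 under SETD2 FL and 154 and 171 under SETD2 C. HILPDA (chr7:128455849-128458418, 2 exons, overlapped by the antisense gene HILPDA-AS1) stood at 56.8 and 70.2 in KO, 56.6 and 55.3 under SETD2 FL and 647 and 685 under SETD2 C. In both genes the 2 SETD2 C libraries were close to each other and far above the other 4 libraries. ADM (chr11:10305073-10307397, 4 exons) had a TPM of 2.99 and 3.55 in KO, 3.42 and 3.73 under SETD2 FL and 31.2 and 29.3 under SETD2 C. The log2 changes from KO were 3.44 (standard error 0.078, adjusted p = 6.5e-07) for ANKRD37, 3.24 (standard error 0.096, adjusted p = 2.72e-06) for HILPDA and 2.89 (standard error 0.10, adjusted p = 5.54e-06) for ADM.

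Sequences before the RefSeq starts of ANKRD37, ADM and ENO2 are shown because the HIF complex is known to bind a short core, ACGTG or GCGTG. The promoter table of RefSeq (GRCh38.p14) holds 250 bases before and 50 after each start, and the first window listed for a gene was used. It matched 11055 of the tested genes by symbol, 316 of the 597 and 29 of the 34 hypoxia effectors, and HILPDA had none. For ANKRD37 and ENO2 the RefSeq start used lies past the first base of the gene in GENCODE. The printed stretches of both therefore fall inside the gene spans, chr4:185396021-185400628 and chr12:6913745-6923698. Bases of the core on either strand are in capitals, and each stretch is 120 bases long, 5′ to 3′ on the gene's strand, which is plus for all 3 printed.
ANKRD37 (chr4:185396679-185396798): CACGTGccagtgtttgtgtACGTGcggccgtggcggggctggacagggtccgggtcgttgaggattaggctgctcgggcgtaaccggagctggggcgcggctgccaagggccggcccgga
ADM (chr11:10304953-10305072): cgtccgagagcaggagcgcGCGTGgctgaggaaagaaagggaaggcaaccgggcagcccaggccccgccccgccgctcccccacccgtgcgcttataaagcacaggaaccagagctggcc
ENO2 (chr12:6914460-6914579): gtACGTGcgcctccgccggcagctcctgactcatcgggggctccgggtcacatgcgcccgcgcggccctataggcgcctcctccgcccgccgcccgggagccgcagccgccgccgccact
ACGTG was found on either strand in 17 of the 29 promoters of hypoxia effectors (58.6%) and in 26.4% of all 11055. GCGTG was found in 16 of the 29 (55.2%) and in 51.1% of all. Among the 316 promoters of genes called higher, 25.9% held ACGTG, which is close to the share over all promoters, and 41.5% held GCGTG. Of 16 promoters of the cholesterol genes described below, 4 held ACGTG (25%) and 14 held GCGTG (87.5%). These matches describe the letters only.

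SLC2A3 and SLC2A1, the main glucose transporters that hypoxia raises, both rose. SLC2A3 had a TPM of 14.7 and 19.3 in KO, 17.7 and 16.8 under SETD2 FL and 105 and 116 under SETD2 C, a log2 change of 2.54 (standard error 0.12, adjusted p = 1.41e-05). SLC2A1 stood at 32.8 and 37.7 in KO, 39.7 and 36.2 under SETD2 FL and 95.1 and 93.7 under SETD2 C, a change of 1.27. LOX, which cross-links collagen, had a TPM of 9.5 and 10.8 in KO, 11.5 and 9.74 under SETD2 FL and 57.9 and 68.02 under SETD2 C. The SETD2 C libraries did not overlap the others in any of these 3 genes. The chemokine receptor CXCR4 changed by 2.20 and BHLHE40, a repressor tied to the circadian clock, by 2.07. CITED2, which competes with HIF for its coactivators, changed by 1.85. MIR210HG, the host of the hypoxia-induced microRNA miR-210, had a TPM of 12.2 and 13.2 in KO and 52.8 and 49.8 under SETD2 C, a change of 1.83 (standard error 0.074, adjusted p = 7.32e-06). BNIP3, a mitophagy receptor, rose by 1.496, PDK1, which holds pyruvate back from mitochondria, by 1.61, and DDIT4, an inhibitor of mTORC1, by 1.57. VEGFA, the main angiogenic growth factor, rose by 0.69 (adjusted p = 0.000597), from 35.8 and 33.4 to 58.2 and 66.1 TPM, and was not called. CA9, a carbonic anhydrase that hypoxia induces, changed by 0.91 and was also short of 2-fold.

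HIF1A itself did not pass the adjusted p. HIF1A, the oxygen-regulated subunit, had a TPM of 22.2 in each in KO, 22.6 and 24.6 under SETD2 FL and 24.97 and 27.9 under SETD2 C, a log2 difference of 0.099 (adjusted p = 0.309) that took a negative sign after adjustment for GC content. Of 9 tested HIF subunits and regulators, 4 rose (44.4%, against 21.1% of all genes). The prolyl hydroxylases EGLN3 and EGLN1, which mark HIF for destruction and are also its targets, rose by 1.15 and 0.84. The third, EGLN2, differed by -0.23, and its adjusted p did not pass without scaling, under quantile normalization and in most fits with a library left out. VHL rose by 0.21, and EPAS1 (HIF-2 alpha) differed by 0.043 (adjusted p = 0.774). HIF1A-AS2, an lncRNA that overlaps HIF1A, was at 0 in each KO library and had a TPM of 2.4 and 2.44 under SETD2 C. The sources used here do not say that counting used the strand, so its reads cannot be told apart from those of HIF1A where the genes overlap.

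Glycolysis followed the same direction at smaller size. Of 19 tested enzymes and lactate carriers, 14 rose (73.7%) and 1 fell, with a median change of 0.44, and 16 were higher than under SETD2 FL. Only ENO2 and PGK1 were called. ENO2, an enolase typical of neurons, had a TPM of 11.1 and 11.02 in KO, 11.4 and 11.7 under SETD2 FL and 82.2 and 87.8 under SETD2 C, a log2 change of 2.74 (standard error 0.064, adjusted p = 6.5e-07). PGK1, the first enzyme of glycolysis to yield ATP, rose from 635 and 668 to 1519 and 1561, a change of 1.09, and fell short of 2-fold (0.96) after adjustment for GC content. LDHA, which turns pyruvate into lactate, had a TPM of 1082 and 1113 in KO and 2129 and 2240 under SETD2 C, a change of 0.84. Its partner LDHB fell by 0.27, and HK2, an inducible hexokinase, rose by 0.92.

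**Figure D2:**
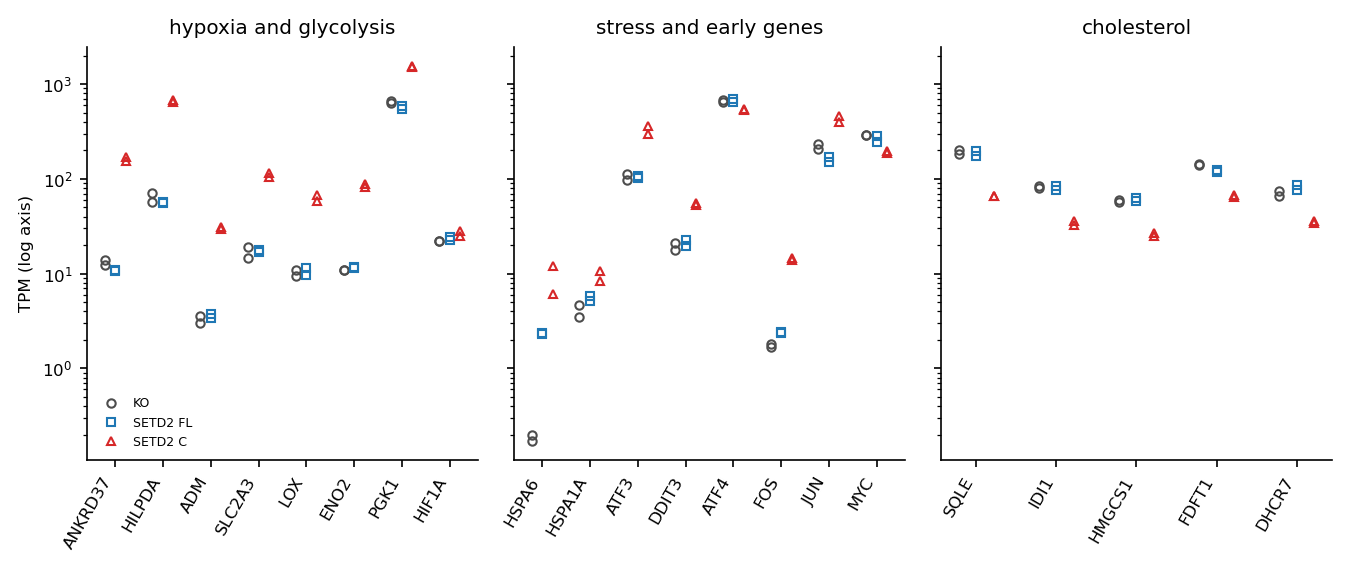
TPM on a log axis of 21 genes in each of the 2 KO (circles), 2 SETD2 FL (squares) and 2 SETD2 C (triangles) libraries of the second table. The hypoxia and glycolysis genes sit higher in the SETD2 C libraries, HIF1A by little, and the 5 cholesterol genes sit lower there.

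Cholesterol genes moved the other way. The enzymes of this pathway are known targets of SREBP2, which is released when sterols in the endoplasmic reticulum run low. Of 21 tested genes, 17 fell (81%), 1 rose and 7 were called lower, with a median change of -0.67. With SETD2 FL their median change was 0.083, and 18 of the 21 were lower under SETD2 C than under SETD2 FL. SQLE, the squalene epoxidase, had a TPM of 181 and 202 in KO, 195 and 176 under SETD2 FL and 65.8 and 66.1 under SETD2 C, a log2 change of -1.67 (standard error 0.081, adjusted p = 1.41e-05). Each SETD2 C library was below each of the other 4. IDI1, the isopentenyl diphosphate isomerase, went from 80.8 and 84.5 in KO to 32.9 and 36.2, a change of -1.40. HMGCS1, the HMG-CoA synthase, went from 57.1 and 60.2 to 24.97 and 26.6, a change of -1.32. FDFT1 (squalene synthase), DHCR7 (the last step of the pathway) and LSS (lanosterol synthase) changed by -1.24, -1.13 and -1.02, and DHCR7 was short of 2-fold (-0.98) without scaling. INSIG1, a sterol-induced brake on SREBP, fell by 0.37, and INSIG2, which is also a hypoxia target, rose by 1.05. SC5D, a late enzyme of the pathway, was the single member that rose, by 0.55. The letters of the sterol response element, TCACCCCAC, were found in 0 of 16 promoters of these genes and in 0.335% of all promoters.

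Prominent decreases were seen in mRNAs of the mitochondrial genome, which encodes 13 subunits of the respiratory chain and ATP synthase, 2 rRNAs and the tRNAs on long transcripts of each strand. All 13 mRNAs had negative differences under SETD2 C, 11 fell and 8 were called. The 11 became 8 with all gene types in the fit and under quantile normalization, and the number called stayed at 8 in both. The libraries did not overlap KO except for MT-ND5. The median change was -1.37, and all 13 were lower than under SETD2 FL at the adjusted p. Their summed TPM was 67262 and 58835 in KO, 103890 and 74276 under SETD2 FL, and 24351 and 27802 under SETD2 C. The SETD2 C libraries lay below both other groups, and the SETD2 FL libraries lay above KO and differed from each other.

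The size of the decrease ran from -0.40 to -2.33 among the members. MT-ATP8 and MT-ATP6 (chrM:8366-8572 and chrM:8527-9207), which share a transcript and overlap, changed by -2.33 (standard error 0.15, adjusted p = 5.59e-05) and -2.24 (standard error 0.15, adjusted p = 8.8e-05). MT-ATP8 had a TPM of 11761 and 10142 in KO, 17716 and 13229 under SETD2 FL and 2290.2 and 2542 under SETD2 C. Its level also differed between the KO libraries of the 2 tables, which were made separately. In the first table MT-ATP8 stood at 37267 and 41198 in KO and 63786 and 43764 in WT. The neighbours MT-CO2 and MT-CO3, subunits of cytochrome oxidase, changed by -1.99 and -1.67, and MT-ND3, MT-CYB, MT-ND2 and MT-ND6 by -1.76, -1.69, -1.37 and -1.37. MT-CO1, the catalytic subunit of the oxidase, changed by -0.47 (adjusted p = 0.0479), from 7422 and 6834 in KO to 5283 and 6150.2. For MT-CO1 the KO levels of the first table, 7441 and 6999, were close to these KO values. MT-ND4 and MT-ND4L changed by -0.61 and -0.52, and MT-ND1 and MT-ND5, at -0.50 and -0.40, did not pass the adjusted p (0.06 and 0.103). With all gene types in the fit, MT-CO1, MT-ND4 and MT-ND4L did not pass either (adjusted p = 0.0806, 0.0502 and 0.0617). MT-ND6 is the only one of the 13 encoded on the other strand. The differences between members were not tested.

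Both mitochondrial rRNAs had higher values under SETD2 C, in contrast to the mRNAs. MT-RNR2, of the large ribosomal subunit, had a TPM of 2226 and 2461 in KO, 3740.1 and 2444 under SETD2 FL and 3513 and 4275 under SETD2 C. MT-RNR1, of the small subunit, stood at 923 and 1000.3 in KO, 1881 and 1202 under SETD2 FL and 1438 and 1614 under SETD2 C. When all gene types entered the fit, where 17.6% of genes rose, their differences were 0.58 (adjusted p = 0.0825) and 0.52 (adjusted p = 0.106), so neither passed. In that fit 8 of the 13 mRNAs fell. The libraries were depleted of rRNA and enriched for poly(A), and the part of these steps in the mitochondrial rRNA values was not tested.

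**Figure D3:**
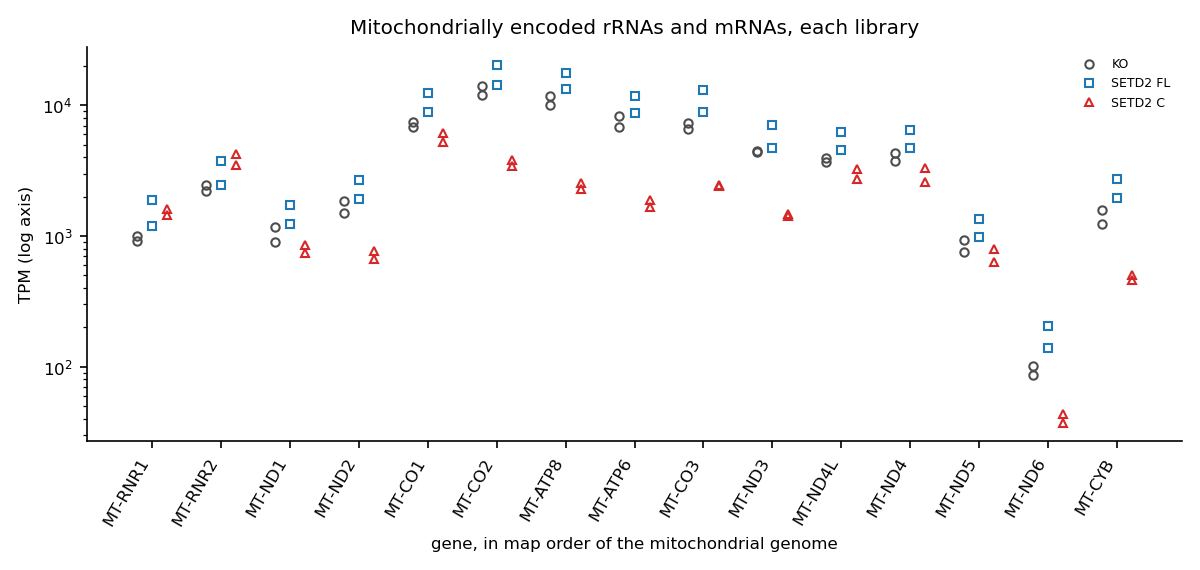
TPM on a log axis of the 2 mitochondrial rRNAs and the 13 mRNAs, in map order along the x axis, in each KO (circles), SETD2 FL (squares) and SETD2 C (triangles) library. From MT-CO2 to MT-ND3 and at MT-CYB the SETD2 C libraries lie well below the others, while MT-RNR1 and MT-RNR2 lie above KO.

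Nuclear genes for mitochondria changed far less. Of 77 nuclear-encoded respiratory chain subunits, 33 fell (42.9%) and 1 rose, with none called and a median change of -0.11 that became 0.039 without scaling, where 14 fell and 13 rose. Of 78 mitochondrial ribosomal proteins, 40 fell (51.3%) and 3 rose, with none called and a median of -0.20. These shares stand beside 15.1% of all genes that fell. Without scaling, 22 of the 78 fell and 11 rose, with a median of -0.055, beside 1115 of 15929 genes that fell. Of 24 factors of mitochondrial transcription and RNA stability, 8 fell and none rose, and their median of -0.033 was positive without scaling and after rescaling without mitochondrially encoded genes (0.11 and 0.061). POLRMT, the mitochondrial RNA polymerase, had a TPM of 79.1 and 70.9 in KO and 66.4 and 61.4 under SETD2 C, a change of -0.38 (standard error 0.072, adjusted p = 0.00613). TFAM, which packages mitochondrial DNA and starts its transcription, had a TPM of 52.8 and 50.9 in KO and 56.9 and 64.02 under SETD2 C, a difference of 0.071 (adjusted p = 0.431).

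Among the other machinery of protein synthesis and turnover, 49 of 82 cytosolic ribosomal proteins fell and 2 rose. Their median of -0.22 became 0.073 under quantile normalization, where 14 rose and 6 fell, so the direction depends on the scaling. Only 14 of the 82 were lower than under SETD2 FL. Of 35 proteasome subunits, 12 fell and 4 rose, with a median of -0.076 that turned positive without scaling.

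Some stress genes rose. HSPA6, a strictly inducible HSP70 of 1 exon (chr1:161524540-161526894), had the largest change after SETD2. Its TPM was 0.17 and 0.2 in KO, 2.31 and 2.36 under SETD2 FL and 6.14 and 12.01 under SETD2 C, a log2 change of 3.63 (standard error 0.26, adjusted p = 9.9e-05). The SETD2 FL libraries were also above KO, and SETD2 C exceeded SETD2 FL by 1.57 (adjusted p = 0.00282). The small heat shock proteins HSPB8 and CRYAB changed by 2.33 and 1.62, with 1.71 and 1.86 TPM of HSPB8 in KO and 12.2 and 12.01 under SETD2 C. HSPA1A, the main inducible HSP70, rose from 3.52 and 4.62 to 8.28 and 10.7 TPM, a change of 0.99, which is just short of 2-fold. Of the 22 tested heat shock proteins and co-chaperones, 10 rose and 3 were called, and 3 others fell, with none falling without scaling, under quantile normalization or with any library left out. The shares of this list that rose and were called were 45.5% and 13.6%, against 21.1% and 3.75% of all genes. The list median of 0.051 was negative after adjustment for GC content or transcript length. Under SETD2 FL the median change of this list from KO was larger, 0.23. At the adjusted p, 6 members were higher and 7 lower under SETD2 C than under SETD2 FL. A heat shock element, TTCNNGAA, lay before the start of HSPA6 and is shown in capitals in 120 bases on its plus strand, and 4 of 19 promoters of the list (21.1%) and 5.82% of all held these letters.
HSPA6 (chr1:161524420-161524539): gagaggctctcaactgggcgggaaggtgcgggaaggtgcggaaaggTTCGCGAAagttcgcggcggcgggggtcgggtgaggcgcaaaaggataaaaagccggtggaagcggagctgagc

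The unfolded protein and ATF4 list was split, with 6 of 23 members up (26.1%), 10 down (43.5%) and a median of -0.25. Over all genes 21.1% rose and 15.1% fell. ATF3, a stress-induced repressor, stood at 96.97 and 114 in KO, 103 and 106 under SETD2 FL and 298 and 357 under SETD2 C, a change of 1.48 (standard error 0.099, adjusted p = 7.57e-05). DDIT3 (CHOP) and PPP1R15A (GADD34), which restarts translation, changed by 1.33 and 1.21. The chaperone HSPA5 (BiP) rose by 0.66. The amino acid genes that ATF4 is known to drive went the other way, with ASNS, PHGDH, PSAT1 and SLC7A11 at -0.75, -0.78, -0.69 and -0.92. ATF4 itself fell from 687 and 648 to 531 and 539.7 TPM, a change of -0.46 (standard error 0.051, adjusted p = 0.000676). CHAC1, which degrades glutathione, was called lower at -1.12 and was below 2-fold without KO replicate 2 (-0.90), at a pseudocount of 1 (-0.98) and without scaling.

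Of 12 antioxidant genes that NRF2 is known to control, 5 rose (41.7%) and 3 fell (25%), against 21.1% and 15.1% of all genes. HMOX1, the heme oxygenase, had a TPM of 29.8 and 26.6 in KO, 52.3 and 53.2 under SETD2 FL and 84.2 and 77.9 under SETD2 C, a change of 1.36 (standard error 0.071, adjusted p = 1.98e-05). OSGIN1, an inhibitor of growth under oxidative stress, was called at 1.09 and was short of 2-fold at a pseudocount of 1 (0.83), under quantile normalization (0.76) and after adjustment for transcript length (0.98). Metallothioneins bind zinc and copper and are switched on by metals and by hypoxia. Of 9 listed, 3 passed the filter and were called. MT2A had a TPM of 66.1 and 59.1 in KO, 72.6 and 69.1 under SETD2 FL and 155 and 150.01 under SETD2 C. MT1X stood at 60.02 and 51.6 in KO and 132 and 149.6 under SETD2 C. Their log2 changes were 1.13 (standard error 0.07, adjusted p = 5.11e-05) and 1.18 (standard error 0.084, adjusted p = 0.000101), and MT1F changed by 1.13. After adjustment for transcript length the changes were 0.89, 0.94 and 0.89, under 2-fold. The metal response core TGCNCNC, which the factor MTF1 is known to bind, is in capitals in 120 bases before the starts of MT2A and MT1X, both on the plus strand, where the edge of the stretch leaves out the first base of 1 core in MT2A, and 63.6% of all promoters hold these letters.
MT2A (chr16:56608417-56608536): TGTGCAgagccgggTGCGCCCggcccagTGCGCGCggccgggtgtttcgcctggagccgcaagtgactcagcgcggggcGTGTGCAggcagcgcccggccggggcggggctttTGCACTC
MT1X (chr16:56682320-56682439): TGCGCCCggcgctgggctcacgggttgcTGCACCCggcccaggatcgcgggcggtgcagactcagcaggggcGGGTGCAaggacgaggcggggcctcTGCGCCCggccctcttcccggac

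Immediate early genes, which answer growth factors and stress within minutes in many cells, were higher here 72 h after transfection. Of 26 tested, 15 rose (57.7%), 2 fell (7.69%) and 7 were called (26.9%), with a median of 0.58 against -0.0049 under SETD2 FL. Over all genes 21.1% rose, 15.1% fell and 3.75% were called higher. FOS had a TPM of 1.82 and 1.69 in KO, 2.38 and 2.43 under SETD2 FL and 14.1 and 14.6 under SETD2 C, a log2 change of 2.59 (standard error 0.099, adjusted p = 6.92e-06). JUNB went from 7.78 and 7.59 in KO to 28.4 and 27.2, a change of 1.64, and FOSL2 changed by 1.86; both are AP-1 subunits. JUN, the most abundant AP-1 subunit of the list, had a TPM of 209 and 232 in KO and 402 and 459 under SETD2 C, a change of 0.82. DUSP1, which switches off MAP kinases, IER3, a regulator of apoptosis, and KLF4 changed by 1.66, 1.82 and 1.31. EGR1 rose by 0.57 (adjusted p = 0.035) from a low TPM of 1.04 and 0.74. MYC fell from 290.1 and 292 in KO to 196 and 186, a change of -0.76 (standard error 0.062, adjusted p = 0.000202), and SRF, which drives many of these genes, fell by 0.25. The AP-1 motif TGANTCA was present in 39 of the 316 promoters of genes called higher (12.3%) and in 4.32% of all promoters. Among 20 promoters of immediate early genes, 1 held it (5%), and these matches too describe the letters only. Of 19 DUSP phosphatases tested, 6 rose (31.6%), 1 fell (5.26%) and only DUSP1 was called (5.26%, against 3.75% of all genes).

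Cell cycle genes moved within 2-fold. Of 54 G2/M phase genes, 24 rose (44.4%) and 2 fell (median 0.16). Of 43 S phase genes, 6 rose (14%) and 13 fell (30.2%). Over all genes 21.1% rose and 15.1% fell. The S phase median of -0.10 turned positive without scaling, and after adjustment for GC content 11 G2/M genes rose and 7 fell. CCNB1 and PLK1, which drive entry into mitosis, rose by 0.18 and 0.24, from 161 and 164 to 209 and 198 TPM for CCNB1. Of 23 replication licensing genes, 9 fell (39.1%) and MCM4 alone rose, with CDC45, of the replicative helicase, at -0.58 and the licensing factor CDT1 at -0.40. Their median of -0.14 was 0.0023 without scaling. Among 18 CDK inhibitors and antiproliferative genes, 9 rose (50%) and 1 fell (5.56%). GADD45B and GADD45A, which answer stress and DNA damage, changed by 1.95 and 1.04, with GADD45A short of 2-fold (0.89) without SETD2 C replicate 2 and after adjustment for GC content or transcript length (0.92 in each). CDKN1A (p21) had a TPM of 28 and 29.9 in KO and 51.9 and 48.2 under SETD2 C, a change of 0.63. Of 20 targets of p53, 7 rose (35%), 2 fell (10%) and GDF15 alone was called (5%, against 3.75% of all genes). Their median change from KO was 0.13 under SETD2 C and 0.24 under SETD2 FL. At the adjusted p, 2 of them were higher and 7 lower under SETD2 C than under SETD2 FL.

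Replication-dependent histone mRNAs end in a stem-loop without a poly(A) tail, and they are seen in poly(A) libraries where a tail was added. Of 66 in the table, 35 passed the filter. Among these 21 rose (60%), none fell and 11 were called, against 21.1% of all genes that rose, and the median was 0.79 against 0.094 under SETD2 FL. HIST2H2BE had a TPM of 8.14 and 9.85 in KO, 4.37 and 5.09 under SETD2 FL and 23.5 and 29.2 under SETD2 C, a change of 1.35 (standard error 0.13, adjusted p = 0.000409). HIST3H2BB stood at 1.46 and 1.88 in KO and 8.63 and 11.3 under SETD2 C, a change of 2.13. HIST1H2BJ and HIST1H1C changed by 1.47 and 1.29. HIST2H3C, which has near-identical copies, was not called without KO replicate 2, without SETD2 C replicate 2 or with no filter beyond a TPM above 0. With a minimum TPM of 1 throughout, only 12 histone genes remained, and 8 of them were called. None of 11 variant histone genes was called, and H3F3B, which encodes H3.3, had a TPM of 553 and 483 in KO and 626 and 657 under SETD2 C (difference 0.16, adjusted p = 0.123).

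Genes that write, remove or read H3K36 methylation kept within 2-fold. Of 13 methyltransferases and demethylases, 3 rose (KDM4B, KDM2A and NSD2, at 0.41, 0.34 and 0.25) and 1 fell (KDM4A, -0.31). These were 23.1% and 7.69% of the list, against 21.1% and 15.1% of all genes. NSD1, which places dimethylation, had a TPM of 12.02 and 11.02 in KO and 13.5 and 13.2 under SETD2 C. Of 18 readers, 1 rose (5.56%) and 2 fell (11.1%). MSH6, the mismatch repair protein that reads the mark, had a TPM of 79.96 and 82 in KO and 81.3 and 83.2 under SETD2 C, and for DNMT3B, a DNA methyltransferase that reads it, the values were 21.1 and 19.8 in KO against 20.4 and 21.5. Neither passed the adjusted p, and their small negative differences of -0.12 and -0.11 turned positive without scaling. Of the 12 genes of Polycomb repressive complex 2, 1 rose and none fell.

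Most factors of RNA processing also stayed within 2-fold, with none called among 18 SR proteins and CLK kinases, 23 hnRNP proteins, 18 nuclear exosome genes and 10 factors of nonsense-mediated decay. The numbers that rose and fell in these lists were 6 and 2, 5 and 3, 0 and 4, and 1 and 1, in that order. As shares, 33.3%, 21.7%, 0% and 10% rose, against 21.1% of all genes. Those that fell were 11.1%, 13%, 22.2% and 10%, against 15.1%. Their medians lay between -0.081 and 0.064, and the sign of each depended on the setting. Of 27 elongation and termination factors, 5 rose (18.5%) and 5 fell (18.5%), close to the shares of all genes. PCF11, which releases polymerase at gene ends, was the 1 called (3.7%, against 3.75% of all genes). PCF11 had a TPM of 22.03 and 22.4 in KO, 26.9 and 25.4 under SETD2 FL and 50.5 and 56.1 under SETD2 C, a change of 1.10 (standard error 0.075, adjusted p = 8.38e-05) that was short of 2-fold after adjustment for GC content (0.97).

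NEAT1, the lncRNA around which paraspeckles form, rose while the proteins of these bodies moved less. NEAT1 had a TPM of 109.8 and 112 in KO, 121 and 117 under SETD2 FL and 578 and 758 under SETD2 C. Of 9 paraspeckle components tested, NEAT1 among them, 5 rose (55.6%, against 21.1% of all genes). The proteins that rose included RBM14, PSPC1 and SFPQ, by 0.46, 0.44 and 0.30, while NONO differed by 0.013. MALAT1, a nuclear lncRNA beside NEAT1 on chromosome 11, had a TPM of 37.99 and 29.5 in KO and 68.3 and 103 under SETD2 C, a change of 1.17 (standard error 0.18, adjusted p = 0.00253) that was short of 2-fold without KO replicate 4 (0.99) or SETD2 C replicate 2 (0.87). Of 11 well-studied lncRNAs tested, 7 rose (63.6%) and none fell.

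LncRNAs as a class were higher under SETD2 C. They made up 15.8% of the genes tested and 32.8% of those called higher. Of 2510 lncRNAs, 196 were called higher (7.81%) and 21 lower, against 401 of 13419 protein-coding genes (2.99%) and 29. The median change was 0.32 for lncRNAs and 0.013 for protein-coding genes. The gap in shares depended on level. At a mean TPM of at most 1 over the 6 libraries, 7.46% of lncRNAs and 8.87% of protein-coding genes were called higher. Over 1 to 2 the shares were close, at 9.81% and 9.4%. Over 2 to 5 they were 9% and 4.67%, and over 5 to 20 they were 4.8% and 1.81%. Summed over all lncRNAs in the table, TPM was 14747 and 14659 in KO, 13272 and 13280 under SETD2 FL, and 19802 and 20652 under SETD2 C. The SETD2 C libraries lay above the other 4, and the SETD2 FL libraries lay below KO.

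The lncRNAs differed by their place in the genome. Of 541 that neither overlapped a protein-coding gene, started within 1000 bp of an opposite one nor lay within 10000 bp downstream of one, 66 were called higher (12.2%). The share was 8.88% of 439 lncRNAs overlapping a gene on the same strand, 6.72% of 774 starting divergently, 5.79% of 121 just downstream and 5.04% of 635 antisense to a gene. These differences were not tested. The nearby coding gene was called higher for 2 of 51 divergent lncRNAs that were called higher and had a tested partner, and for 10 of all 754 such lncRNAs. The same counts were 5 of 35 and 12 of 384 for overlap on the same strand, 3 of 26 and 9 of 547 for antisense overlap, and 2 of 7 and 3 of 115 downstream. By name, 29 of 402 antisense lncRNAs (7.21%), 25 of 205 LINC genes (12.2%) and 2 of 18 microRNA hosts (11.1%) were called higher. The share over all tested lncRNAs was 7.81%, so that of the antisense lncRNAs was close to it. The 29 antisense lncRNAs became 11 at a pseudocount of 1, 14 of 227 when each library needed a TPM of 1 or more, and 13 with 6 called lower under quantile normalization, where their median went from 0.29 to 0.062. The 25 LINC genes became 11, 10 of 102 and 11 in that order. LINC02193 was called lower, a call lost without KO replicate 4 or SETD2 C replicate 2, with all gene types and in other settings. Of 24 snoRNA host genes, 8 rose (33.3%) and 5 fell (20.8%), against 21.1% and 15.1% of all genes. SNHG25 was called lower at -2.07, with 63.02 and 104 TPM in KO and 9.23 and 46.5 under SETD2 C, and lost the call with any of KO replicate 2, KO replicate 4 or SETD2 C replicate 1 left out and in other settings.

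LINC01411 and LINC01011 are examples of low-level lncRNAs that rose. LINC01411 had a TPM of 0.44 and 0.45 in KO, 1.72 and 1.19 under SETD2 FL and 5.72 and 5.56 under SETD2 C. LINC01011 went from 2.31 and 2.4 in KO to 10.98 and 12.3, a change of 1.95 (standard error 0.11, adjusted p = 2.95e-05). LINC01358 and AC098479.1 were listed at 0 in both KO libraries and had a TPM of 2.06 and 3.2 and of 2.12 and 2.52 under SETD2 C. In all, 16 of the 597 genes were listed at 0 in both KO libraries. RSC1A1, a gene of 1 exon that lies inside DDI2, was another, at 2.78 and 3.38 under SETD2 C, and the overlap leaves its reads uncertain. FP671120.4, FP236383.2 and FP236383.3, near-identical copies on chromosome 21 with the same value in every library, had a TPM of 16.5 and 17.5 in KO, 7.9 and 5.64 under SETD2 FL and 5.68 and 2.56 under SETD2 C. They count as 3 of the 50 lower genes but may be 1 signal. The summed TPM of genes annotated as rRNA also went from 1282 and 1066 in KO to 569 and 234 under SETD2 C, and its part in this was not tested. WRB-SH3BGR, a readthrough of neighbouring genes that share its exons, is uncertain in the same way (change -1.89).

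KRAB zinc finger repressors crowd the arms of chromosome 19, where H3K36me3 and H3K9me3 are known to lie together over their coding exons. Of 417 tested ZNF genes, 28 were called higher and none lower, and 25 of the 28 were on chromosome 19. Of the 186 ZNF genes of chromosome 19, 25 were called higher (13.4%), with a median change of 0.42. The 231 ZNF genes elsewhere had 3 called (1.3%) and a median of 0.11, and the 933 other genes of chromosome 19 had 42 called (4.5%) and a median of -0.044. This split by chromosome was chosen after the values were seen. SETD2 C exceeded SETD2 FL at the adjusted p for 23 of the 25, and the median change of the 186 under SETD2 FL was 0.099. Their levels were low, with group means of 0.105 to 3.5 TPM in KO and 0.91 to 10.2 under SETD2 C. The number called depended on the handling of low values, from 6 when each library needed a TPM of 1 or more to 39 with a pseudocount of 0.1, and was 11 under quantile normalization. Under the stricter of these filters, 1 ZNF gene elsewhere was called.

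The same ZNF genes tended to be lower in KO than in WT. In the first table, whose 2 KO libraries are not those of the second, 23 of the 25 passed the filter. Of these 23, 18 were at least 2-fold higher in WT with no overlap between groups. The same held for 30 of all 183 ZNF genes of chromosome 19 that passed in both tables. ZNF528, among the 23, had the opposite sign (-0.55). ZNF160 had a TPM of 3.84 and 4.87 in WT and 0.68 and 0.46 in KO of the first table, and 0.8 and 0.34 in KO, 0.74 and 0.54 under SETD2 FL and 3.18 and 2.57 under SETD2 C in the second. ZNF83 stood at 3.39 and 4.07 in WT and 0.4 and 0.19 in KO, then at 0.22 and 0.26 in KO, 0.37 and 0.5 under SETD2 FL and 1.65 and 1.72 under SETD2 C. In both, KO and SETD2 FL were low, SETD2 C was higher and WT was highest, although levels set across tables are only side by side, since the tables were made separately. ZNF738 had a TPM of 14.9 and 16.9 in WT, 3.56 and 3.36 in KO of the first table, 3.22 and 3.77 in KO of the second and 8.98 and 11.3 under SETD2 C.

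Over all called genes, 37 of the 411 higher ones that passed the filter of the first table (9%) were at least 2-fold higher in WT than KO without overlap, against 0.84% of the 14530 genes that passed in both tables. Of these 37, 24 lie on chromosome 19, and 35 were higher under SETD2 C than under SETD2 FL at the adjusted p. The opposite direction, at least 2-fold lower in WT, held for 9 of the 411. SPARC, a secreted matrix protein, had a TPM of 35.8 and 43.5 in WT and 0.43 and 0.53 in KO of the first table. In the second it stood at 0.69 and 0.92 in KO, 2.61 and 2.2 under SETD2 FL and 7.87 in each under SETD2 C, a log2 change of 2.57 (standard error 0.14, adjusted p = 3.21e-05). LINC01535 had a TPM of 5.76 and 4.85 in WT, 0.84 and 0.41 in KO of the first table, 0.6 and 0.85 in KO of the second and 3.73 and 4.63 under SETD2 C. Most of the increase under SETD2 C had no such counterpart. The median difference of WT from KO was 0.13 over the 411 genes and 0.0047 over all 14530. ANKRD37 had a TPM of 2.9 and 3.14 in WT and 3.1 and 3 in KO, and the 33 hypoxia effectors in both tables had a median difference of 0.099. The 45 lower genes that passed in both tables had a median difference of 0.27, and none was at least 2-fold lower in WT.

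**Figure D4:**
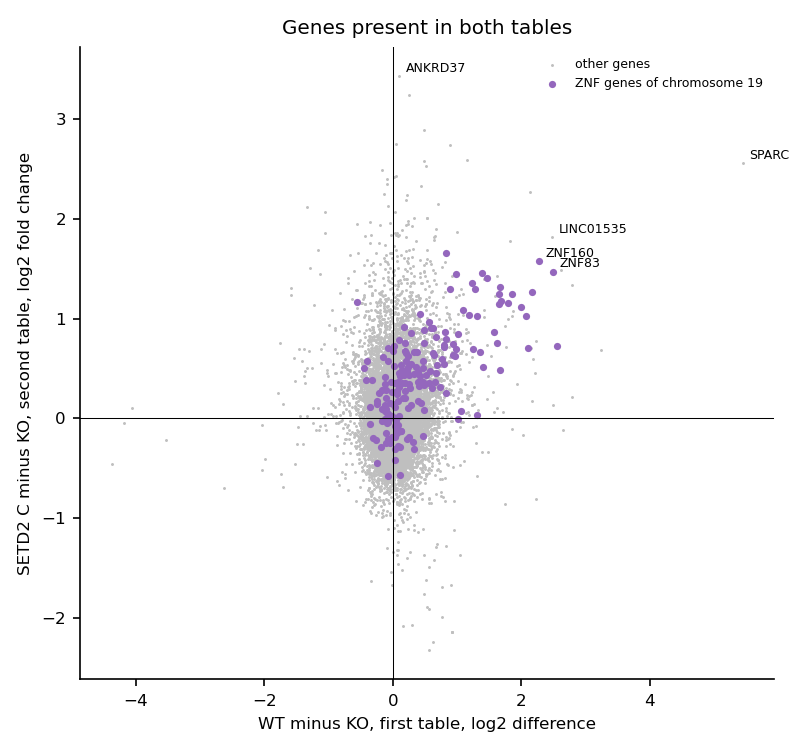
Each point is a gene that passed the filter in both tables, with the log2 difference of WT minus KO in the first table on the x axis and the log2 fold change of SETD2 C minus KO in the second on the y axis; ZNF genes of chromosome 19 are purple. Of these ZNF genes, 30 were at least 2-fold higher in WT without overlap and 18 of them were called higher under SETD2 C, while ANKRD37 lies near 0 on the x axis.

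In several smaller groups some members rose, beside 21.1% of all genes that rose and 15.1% that fell. Of 15 matrix metalloproteinases and inhibitors, 9 rose (60%) and 1 fell. MMP2, a gelatinase, had a TPM of 6.08 and 5.93 in KO, 12.1 and 10.8 under SETD2 FL and 15.9 and 21.97 under SETD2 C, a change of 1.42 (standard error 0.14, adjusted p = 0.000494). Of 35 collagens and laminins, 9 rose (25.7%) and none fell, and the share that rose is close to that of all genes. LAMB3 had the largest change, 1.88, from 0.17 and 0.14 to 2.08 and 2.05 TPM. COL7A1, the anchoring fibril collagen, was called at 1.01 and lost the call without KO replicate 2 or SETD2 C replicate 2, at a pseudocount of 1, under quantile normalization and after adjustment for GC content or transcript length. Of 13 tubulins, 5 rose (38.5%) and 4 fell (30.8%), and TUBB3, the neuronal beta tubulin, was called at 1.24. Of 35 HOX genes, 9 rose (25.7%, also close to the share of all genes) and 3 fell. HOXA13 alone was called higher, which is 2.86% of the list against 3.75% of all genes. Its change was 1.36 (11.9 and 12.01 TPM in KO and 33.3 and 36.5 under SETD2 C). None of the 3 clustered protocadherins that passed the filter, of 53 listed, passed the adjusted p.

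Genes of the interferon and NF-kB responses, which transfected DNA is known to rouse in many cells, rose in part. Only 17 of 30 interferon-stimulated genes passed the filter. Of these, 7 rose (41.2%, against 21.1% of all genes) and none fell, with BST2 (tetherin) at 1.87 and ISG20, an RNA exonuclease, at 1.58. BST2 had a TPM of 1.2 and 0.95 in KO, 1.88 and 2 under SETD2 FL and 5.76 in each under SETD2 C. The common effectors ISG15 and IFIT1 differed by 0.00028 and 0.063, neither past the adjusted p. Of 7 tested NF-kB targets, 3 rose and 1 fell, and CXCL8 was called from 0.11 and 0.07 to 0.84 and 0.66 TPM, a call lost without KO replicate 4 (0.97), at a pseudocount of 1 (0.64), under quantile normalization (0.65) and after adjustment for GC content (0.84) or transcript length (0.91). Without either SETD2 C replicate it did not pass the filter, and no gene of the list was called.

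ANXA1 and CRABP2 were among the 20 largest increases and belong to no list. ANXA1, annexin A1, had a TPM of 6.05 and 6.15 in KO, 6.62 and 8.32 under SETD2 FL and 39.1 and 42.2 under SETD2 C, a change of 2.50 (standard error 0.098, adjusted p = 6.92e-06). CRABP2, which carries retinoic acid to the nucleus, stood at 23.4 and 25.4 in KO, 25.1 and 27.5 under SETD2 FL and 143 and 137 under SETD2 C, a change of 2.35 (standard error 0.066, adjusted p = 2.28e-06). TCEAL7 went from 0.39 and 0.59 in KO to 5.3 and 6.25 under SETD2 C, and AC132217.1, an lncRNA that overlaps IGF2, from 0.44 and 1.01 to 7.13 and 5.61. SLC6A9, a glycine transporter, was called lower, from 6.83 and 6.34 in KO to 2.05 and 2.34, a change of -1.52 (standard error 0.11, adjusted p = 0.000118).

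**Figure D5:**
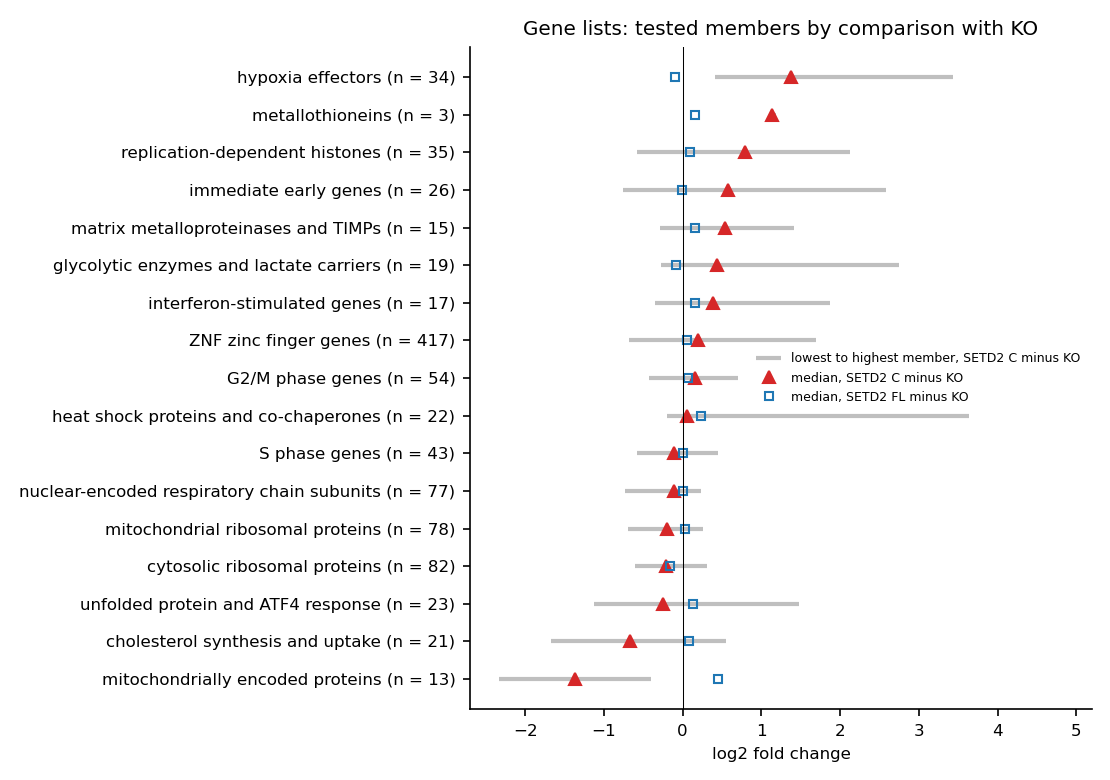
For 17 gene lists, the median log2 fold change of tested members under SETD2 C minus KO (triangles), under SETD2 FL minus KO (open squares), and the lowest to highest member under SETD2 C (bars); n is the number tested. Hypoxia effectors are furthest to the right with a median of 1.38 and mitochondrially encoded proteins furthest to the left with -1.37, and the SETD2 FL medians lie between -0.16 and 0.45.

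The SETD2 C libraries had 27104 and 26139 genes above 0, against 24306 to 25440 in the other 4, and the part of this in the changes of low genes was not tested. Between the 2 SETD2 C libraries 140 genes lay 2-fold or more apart, 7 of them among the 597, and between the 2 KO libraries 116 did. Protein-coding genes with low levels and those with short transcripts were called higher more often. Among protein-coding genes with a mean TPM of at most 1 over the 6 libraries of the table, 8.87% were called higher, against 1.13% at a mean over 20 to 100. The filter lets a gene enter through the SETD2 C libraries alone, which favours higher shares among low genes, and 16 of the 597 were listed at 0 in both KO libraries. Protein-coding transcripts of at most 500 nt had 15.3% called higher and those over 4000 nt 1.94%. Protein-coding genes of 1 exon had 6.6% and those of more than 10 exons 1.86%, and the level of these genes differs too. In a narrow range of mean TPM, over 1 to 5, the protein-coding share was 6.21% for 1 or 2 exons and 9.15% for over 2 to 5. It was 7.73% for over 5 to 10 and 3.81% for more than 10, so it did not fall steadily. By length, lncRNAs ran from 5.25% at over 2000 to 4000 nt to 9.27% at over 500 to 1000 nt. The lncRNAs of 1 exon had 9.22% called higher and those of more than 10 exons 10.6%. Over the nuclear chromosomes the share ran from 1.76% on chromosome 9 to 6.18% on chromosome 8, with 5.99% on chromosome 19, and none of the 13 mitochondrial genes was called higher.

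All 10 markers of HEK293 cells passed the filter in these libraries, and NEFM, NEFL and KRT8 were called higher under SETD2 C. NEFM, a neurofilament typical of this line, had a TPM of 125 and 120.4 in KO, 111 and 126 under SETD2 FL and 289 and 341 under SETD2 C, and KRT8, a simple epithelial keratin, 28.2 and 29.3, 31.9 and 32.9 and 98.1 and 97.9 in the same order. The summed TPM of the 10 was 1127 and 1129 in KO and 1598 and 1678 under SETD2 C. Of 17 markers of other cell types, 5 passed the filter, and all 5 rose. Their sum over all 17 was 9.92 and 10.5 TPM in KO, 11.5 and 13.9 under SETD2 FL, and 21.9 and 18.2 under SETD2 C, and no marker exceeded 12.1 TPM. COL1A1, of fibroblasts, was the highest, and the defining blood and liver markers PTPRC, CD3E and AFP were at or near 0 in every library. DES and LUM were called at 1.75 and 1.24 and 1.79 and 1.2 TPM under SETD2 C, and both calls were lost without KO replicate 2 or SETD2 C replicate 1, at a pseudocount of 1, under quantile normalization and after adjustment for transcript length.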

How the data were processed

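RNA-seq libraries of HEK293T cells were depleted of rRNA and enriched for poly(A). Per the labels and the study's methods, the authors aligned reads to hg38 with STAR 2.6.1c and Ensembl gene models, and deposited TPM per gene from RSEM 1.3.0 without normalization between libraries. Gene types, positions and transcript features came from GENCODE 44, in which 394 of 58884 genes had no match. TPM was divided by a factor per library (the median over genes of its ratio to their geometric mean), and log2(scaled TPM + 0.5) was fitted over the 6 libraries of the second table by limma 3.58.1 (R 4.3.3), with moderated variances that follow the mean level. Genes needed a TPM of 0.5 or more in 2 or more libraries. The procedure was tested on simulated data. Named genes were SETD2, the 20 largest increases and 15 largest decreases among called genes with a mean TPM of at least 2 and groups that did not overlap, up to 6 called members of each of 47 lists, and 23 defining members. Other genes named in the text were chosen after their values were seen. The members and lists were chosen with earlier results of these data known, so their counts are descriptions. Alternatives were other pseudocounts, filters and scalings, a fit to the 4 libraries alone, moderation without a trend, a call by adjusted p only, adjustment for GC content or transcript length, all gene types, and each library left out. ChIP-seq samples were not used here, and some members of the lists are counted but not reported here by name.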

Additional observations from a re-analysis of the deposited data

Results flagged for a closer look

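Gene types outside those tested were summed per library, and types with at least 10 TPM in KO whose sum was at least 1.5 times higher under SETD2 C, with both libraries above both KO libraries, are listed here. The sum over mitochondrial rRNA genes was 1.64 times that of KO. The scRNA genes reached 2.52 times, and the sum is that of BCYRN1 alone, the brain cytoplasmic RNA BC200, with a TPM of 230.2 and 223 in KO, 203 and 219 under SETD2 FL and 601 and 538 under SETD2 C. In the first table BCYRN1 stood at 494 and 485 in WT and 531 and 499 in KO, so its level differed more between the KO libraries of the 2 tables than between WT and KO. The snRNA genes reached 1.69 times, with sums of 129 and 126 in KO but 282 and 148 in the SETD2 C libraries, so SETD2 C replicate 1 made most of it. RN7SK, the RNA that holds the elongation factor P-TEFb inactive, had a TPM of 26.7 and 21.5 in KO and 55.1 and 39.1 under SETD2 C. The snoRNA genes reached 1.62 times, from 447 and 328 in KO to 641 and 612. These RNAs are mostly without a poly(A) tail, and the part of poly(A) enrichment in their values was not tested.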

How the results depend on the processing

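No paired analysis was possible because the SETD2 C and KO libraries share only the replicate number 2. The number of genes called higher, 597, was 986 and 335 at pseudocounts of 0.1 and 1, 267 when each library needed a TPM of 1 or more, 342 under quantile normalization and 3357 by the adjusted p alone. The number called lower, 50, was 93 at a pseudocount of 0.1, 130 under quantile normalization, 87 after adjustment for transcript length, 79 with all gene types and 2404 by the adjusted p alone. With each library left out in turn, 466 to 640 genes were higher and 52 to 77 lower, the last without SETD2 C replicate 1, and from 400 to 518 of the 597 and from 39 to 44 of the 50 kept their call. The other alternatives moved both counts by less than 1.5 times.

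Of 119 named genes, 101 were called, and 21 of these lost the call under at least 1 alternative. The sign changed for HIF1A, NSD1 and TFAM after adjustment for GC content (-0.037, -0.0598 and -0.083), for TFAM after adjustment for transcript length (-0.013) and without SETD2 C replicate 2, its values with each library left out running from -0.0091 to 0.151, and for MSH6 and DNMT3B without scaling (0.023 and 0.035). None of these 5 passed the adjusted p. With 2 libraries a group and no counts, counting error cannot be given, and the pseudocount sets the size of changes of genes under a TPM of about 2.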
